A study of Mus musculus with 12 samples.

Results

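Solute carriers (SLC genes) are membrane proteins that move small solutes across the plasma membrane and the membranes of organelles. The genes described here were 137 whose symbol begins with Slc, selected on their measured level. That level was at least 5 FPKM (fragments mapped per kilobase of transcript, scaled to the size of the library) in all 3 libraries of at least 1 of 4 groups. They were taken from 395 Slc genes in a table of 47643 genes. A set of 14 Slc genes, mostly the main glucose, lactate and amino acid carriers, was left out by name, and 11 of those also reached the level. A further 244 Slc genes stayed below the level in every group, and 75 of these were at 0 in all 12 libraries.

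RNA was sequenced in bulk from cells labelled naive CD4+ T cells, taken from the spleens of C57BL/6 mice and cultured for 3 days. All cells received plate-bound anti-CD3 and anti-CD28, each coated at 2 μg/ml. The groups, of 3 libraries each, were Tnfr2-/- cells given TNF together with TGF-β, wild-type (WT) cells given the same TNF+TGF-β, WT cells given IL-6 together with TGF-β, and WT cells with no added cytokine (Th0). TNF and IL-6 were used at 20 ng/ml, TGF-β at 2 ng/ml. Tnfr2-/- mice lack TNF receptor 2, encoded by Tnfrsf1b. The labels do not say how that allele was made, or whether the 3 libraries of a group came from separate mice or cultures, so p-values measure the spread between libraries, which may be technical. The samples include no group with TGF-β alone and no Tnfr2-/- Th0 group.

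Solute carriers include facilitators, which let a solute run down its gradient, and coupled carriers, which use a sodium or proton gradient to pull another solute along. The family covers sugars, amino acids, nucleosides, vitamins, lipids, organic anions, inorganic ions and metals, and it includes the large group of mitochondrial carriers that exchange nucleotides, phosphate and metabolic intermediates across the inner mitochondrial membrane. T cells raise nutrient uptake after activation, and several carriers are needed for their growth.

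Tnfrsf1b had 4.87, 3.71 and 3.19 FPKM in Tnfr2-/- libraries, against 74.4, 108 and 70.8 FPKM in WT libraries under TNF+TGF-β. The sum of 8 T cell markers ran from 2065 to 3063 FPKM in Tnfr2-/- libraries and from 2508 to 3793 FPKM in the WT libraries, but markers of other cell types were present. Cd8a exceeded Cd4 in 11 of 12 libraries, with Cd8a between 8.54 and 194 FPKM and Cd4 between 4.07 and 79.6 FPKM. The summed level of 8 B cell markers ran from 1960 to 4307 FPKM in Tnfr2-/- libraries, 263 to 340 FPKM under WT TNF+TGF-β, 422 to 938 FPKM under WT IL-6+TGF-β and 769 to 1222 FPKM in WT Th0. The sum of 12 macrophage and myeloid markers ran from 315 to 1605 FPKM in Tnfr2-/- libraries, while the WT libraries lay between 35.6 and 190 FPKM. The sum of 6 CD8 and NK cell markers was 95.5 to 302 FPKM in Tnfr2-/- libraries, against 1163 to 1664 FPKM in the WT libraries. The Tnfr2-/- libraries differed among themselves. Lyz2, a lysozyme of myeloid cells, had 1310, 928 and 178 FPKM in replicate 1, replicate 2 and the library numbered 4, whereas Cd79a, part of the B cell receptor, had 668, 1215 and 1638 FPKM. In such bulk samples, fewer cells of a type and less RNA per cell cannot be told apart. The depth estimated from the steps between low values was 16800000 to 24000000 fragments per library.

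**Figure D1:**
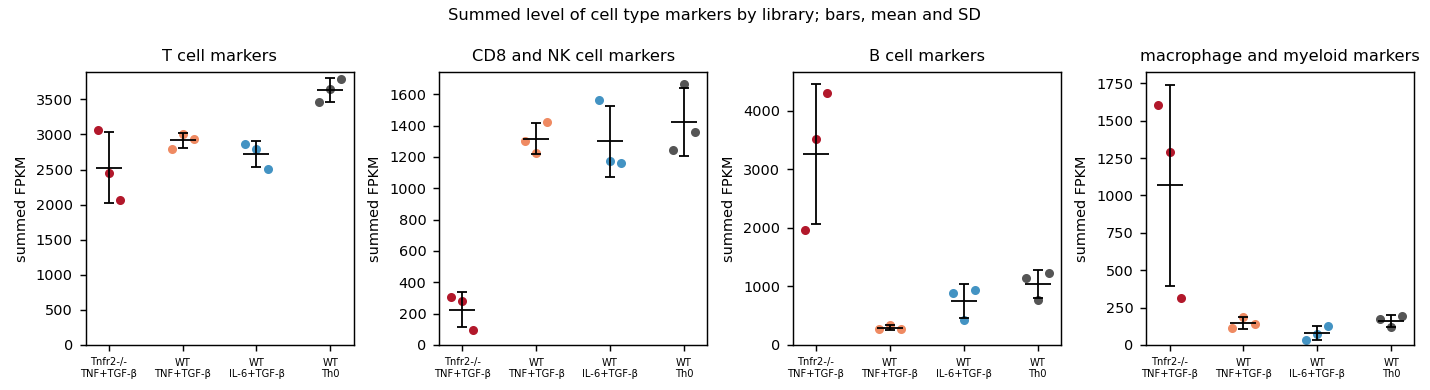
Summed FPKM of fixed marker lists for T cells, CD8 and NK cells, B cells and macrophage and myeloid cells in each library (points), with the mean and SD of 3 libraries (bars). The groups run from Tnfr2-/- cells, left, over the cytokine-treated WT groups to WT Th0, right. The B cell sums of the Tnfr2-/- libraries, 1960 to 4307 FPKM, lie above those of all WT libraries, and their CD8 and NK sums, 95.5 to 302 FPKM, lie below.

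The carriers spanned a wide range of levels. Mean FPKM over the 12 libraries was at least 100 for 8 of the 137 genes, at least 50 for 19 and under 10 for 60, with a median of 12.6 FPKM. Together they made up 0.497% to 0.717% of the summed FPKM of a library. The 10 highest were led by the mitochondrial carriers Slc25a5 and Slc25a3, which exchange ADP for ATP and import phosphate, with means of 936 and 381 FPKM. The nucleoside carrier Slc29a1 (321 FPKM) and the further mitochondrial carriers Slc25a4 (171 FPKM), Slc25a39 (148 FPKM) and Slc25a11 (121 FPKM) followed. Slc9a3r1 (124 FPKM) is a scaffold protein that binds a sodium/proton exchanger and carries nothing itself; 4 of the 137 genes are of this kind, named after a carrier without being one. Slc35a4 (114 FPKM), the sugar carrier Slc50a1 (98.5 FPKM) and the folate carrier Slc19a1 (84.7 FPKM) completed the list.

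The level threshold was met in all 4 groups by 82 genes, in 3 groups by 18, in 2 groups by 17 and in 1 group by 20. By group, it was met by 110 genes in Tnfr2-/- cells, 122 under WT TNF+TGF-β, 110 under WT IL-6+TGF-β and 94 in WT Th0. Just inside it were Slc5a6, Slc41a3 and Slc25a37, whose lowest library in their best group had 5.05, 5.17 and 5.31 FPKM. Just outside were Slc25a40, Slc31a2 and Slc16a13, at 4.85, 4.84 and 4.74 FPKM. Because the level chose the genes, a gene that met it through a single group had to stand high there. Such a gene is described, with no test, in comparisons that hold that group. A gene that met the level in 2 or 3 groups could still meet it on only 1 side of a comparison. It is tested, although the level rule favours a difference toward that side. The 82 genes that met the level in all 4 groups are free of this in every comparison. By substrate, 30 genes were carriers of the mitochondrial family, 22 carried nucleosides or nucleotide sugars, 21 metals or heme, 20 inorganic ions, 15 vitamins, lipids or cofactors, 9 amino acids or peptides, 9 sugars or monocarboxylates, 6 organic ions and 1 urea.

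The highest group mean lay in Tnfr2-/- cells for 42 genes, under WT TNF+TGF-β for 40, under WT IL-6+TGF-β for 41 and in WT Th0 for 14. The lowest lay in those groups for 27, 17, 20 and 73 genes. These counts depend on the level rule, which a gene low in Th0 could meet through a cytokine group. The level was met by 94 genes in WT Th0, the fewest of any group, so the counts are no separate result about Th0. Among the 82 genes that met the level everywhere, the highest group mean exceeded the lowest by a median factor of 1.57. The factor was at least 2 for 23 genes and at least 4 for 5, namely Slc2a6 (16.4), Slc44a1 (7.65), Slc43a2 (5.21), Slc17a9 (4.82) and Slc39a8 (4.69). The flattest, named after its values were seen, was the zinc carrier Slc30a6, with a factor of 1.13. The spread between libraries of a group was wider in Tnfr2-/- cells, with a median coefficient of variation over the genes of 19.9%, against 11.3% under WT TNF+TGF-β, 17.3% under WT IL-6+TGF-β and 12.5% in WT Th0.

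**Figure D2:**
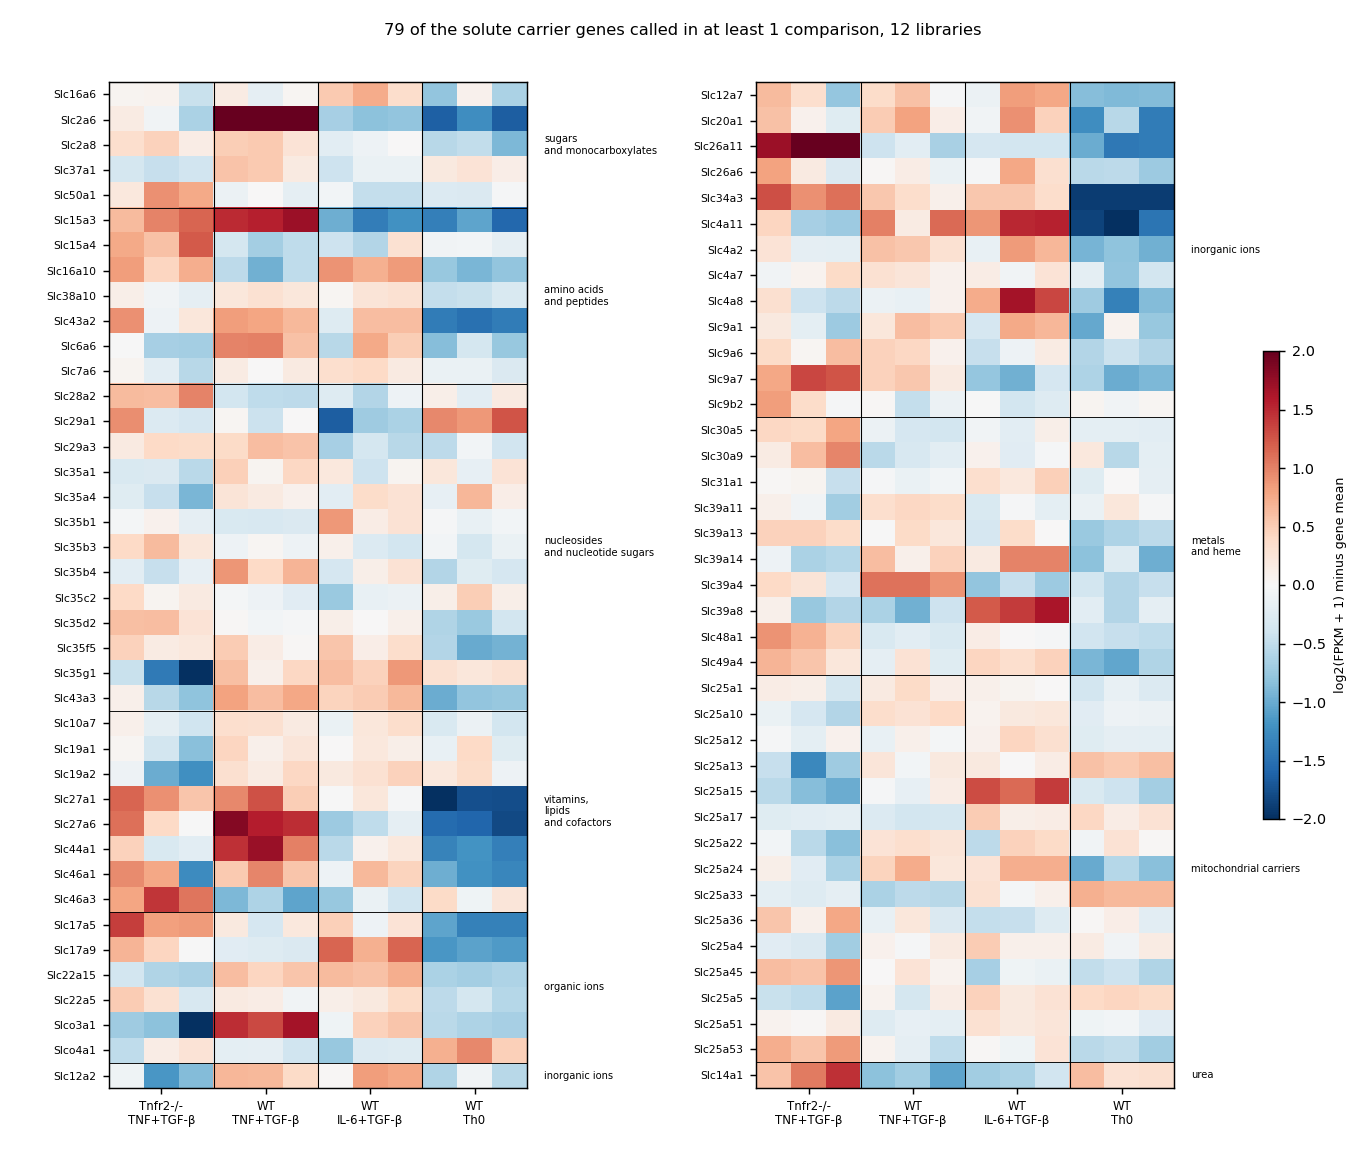
Heat map of log2(FPKM + 1) minus each gene's mean over 12 libraries, for 79 of the carrier genes called different in at least 1 comparison (rows, by substrate class) in the 12 libraries (columns, by group). Red marks values above the gene's mean and blue values below; Slc2a6 and Slc15a3 are reddest under WT TNF+TGF-β, Slc39a8 and Slc25a15 under WT IL-6+TGF-β, and Slc26a11 in Tnfr2-/- libraries.

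Promoter sequences of 4 genes are shown because their levels differed between the cytokine settings (Slc2a6, Slc44a1 and Slc39a8) or were higher over Th0 in both (Slc20a1, a phosphate importer). Slc15a3 and Slc39a4, which also differed between the settings, had no match in the promoter table. Each is the 250 bases before the start site in RefSeq, GRCm38.p6, 5′ to 3′ on the gene's strand. They lie at chr2:27027999-27028248, minus strand, for Slc2a6; chr4:53440163-53440412, plus strand, for Slc44a1; chr3:135825029-135825278, plus strand, for Slc39a8; and chr2:129198523-129198772, plus strand, for Slc20a1. Capitals mark a match to one of the motifs searched.
Slc2a6: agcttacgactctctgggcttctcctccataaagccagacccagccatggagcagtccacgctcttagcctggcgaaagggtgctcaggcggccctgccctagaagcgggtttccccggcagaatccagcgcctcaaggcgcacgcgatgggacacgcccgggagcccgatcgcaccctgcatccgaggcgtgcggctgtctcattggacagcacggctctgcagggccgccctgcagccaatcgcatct
Slc44a1: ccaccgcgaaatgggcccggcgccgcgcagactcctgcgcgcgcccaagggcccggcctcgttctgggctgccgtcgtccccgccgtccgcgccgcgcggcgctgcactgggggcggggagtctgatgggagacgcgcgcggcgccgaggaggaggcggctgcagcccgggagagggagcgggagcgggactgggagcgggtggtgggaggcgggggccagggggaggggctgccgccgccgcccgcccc
Slc39a8: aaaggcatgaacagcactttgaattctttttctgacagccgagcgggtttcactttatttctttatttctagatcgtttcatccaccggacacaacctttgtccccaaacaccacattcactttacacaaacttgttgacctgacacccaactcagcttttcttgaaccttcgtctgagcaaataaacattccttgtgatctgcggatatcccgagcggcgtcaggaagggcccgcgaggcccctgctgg
Slc20a1: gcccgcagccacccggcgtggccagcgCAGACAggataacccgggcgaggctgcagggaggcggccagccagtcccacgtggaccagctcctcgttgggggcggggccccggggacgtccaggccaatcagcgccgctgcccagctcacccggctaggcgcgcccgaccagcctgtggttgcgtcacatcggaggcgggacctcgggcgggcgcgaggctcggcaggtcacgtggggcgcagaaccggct
The motifs were the NF-kB-like GGGNNTTCC, the AP-1 motif TGACTCA and the SMAD-like CAGACA, each on both strands. A CAGACA lay 223 bases before the start of Slc20a1, and the other 3 windows printed held no match. Another window of Slc39a8, not printed, held a CAGACA. Promoters were found for 105 of the 137 genes, in 143 windows. GGGNNTTCC was present in 3.5% of the carriers' windows and in 4.98% of all 32851 windows of the same 250 bases, TGACTCA in 2.1% and 4.46%, and CAGACA in 9.79% and 17.1%. No match says only that these letters are absent from the window.

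More carriers were called above Th0 than below it in WT cells given TNF+TGF-β. Of the 128 testable genes, 38 rose and 8 fell (limma on log2(FPKM + 1), Benjamini-Hochberg adjusted p under 0.05 over 13082 genes), next to 18.7% and 13% of all tested genes called higher and lower. The share called in either direction was 35.9%, against 31.7% of all tested genes. With no overlap between the libraries of the groups, 59 carriers lay above Th0 and 18 below, next to 31.9% and 23.2% of all tested genes. Genes named below were mostly picked by the size of called differences, so their lack of overlap is no further support. The median difference of the carriers was 0.24 on the log2 scale, against 0.07 over all tested genes. Restricted to the 82 genes that met the level in all 4 groups, 19 rose and 5 fell. That is 29.3% called, below the share of all tested genes. The level rule admitted genes low in Th0 through a cytokine group, which favours rises over Th0 outside these 82. Rescaling each library to a fixed total (TPM) shifted the median of all genes to 0.22 and gave 51 higher and 6 lower. Markers moved with this contrast: 8 of 8 B cell and 3 of 8 T cell markers were called lower under TNF+TGF-β, while 3 of 4 tested CD8 and NK markers and 2 of 3 tested dendritic cell markers were called higher. Of 11 tested myeloid markers 1 was higher and 1 lower. Their part in these counts was not tested.

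The largest difference was that of Slc2a6, which encodes a hexose carrier of lysosomal membranes. It had 262, 290 and 196 FPKM under WT TNF+TGF-β, against 13.7, 18.2 and 13.6 FPKM in WT Th0, a log2 difference of 3.94 ± 0.21 (SE, limma adjusted p = 1.16e-07). The lowest library under TNF+TGF-β was far above the highest Th0 library. Its relative Slc2a8, an intracellular hexose carrier, had 11.8, 12 and 10 FPKM, against 5.16, 5.46 and 3.88 FPKM in Th0. These were the 2 called of 8 sugar and monocarboxylate carriers.

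Among amino acid and peptide carriers, 4 of 9 rose and none fell. Slc15a3, a histidine and peptide carrier of lysosomes, had 18.4, 19.4 and 21.8 FPKM under WT TNF+TGF-β, against 1.68, 2.32 and 1.32 FPKM in WT Th0 (log2 difference 2.92 ± 0.19, limma adjusted p = 6.47e-07). Slc43a2, which lets branched-chain amino acids and other large neutral amino acids through, had 31.6, 30.6 and 27.6 FPKM, against 5.9, 5.45 and 5.9 FPKM in Th0. The taurine carrier Slc6a6 had 82.5, 83.8 and 62.3 FPKM, against 22.2, 32 and 23.9 FPKM in Th0. In each of these the groups did not overlap.

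Of the 12 testable vitamin, lipid and cofactor carriers, 3 rose and 1 fell. Slc44a1, which takes up choline for phospholipid synthesis, had 42.5, 51.8 and 30.9 FPKM under WT TNF+TGF-β, against 5.3, 5.94 and 5.13 FPKM in WT Th0 (log2 difference 2.70 ± 0.25, limma adjusted p = 1.07e-05). Slc27a1, a fatty acid transport protein, had 22.1, 27.7 and 15.7 FPKM, against 1.92, 2.5 and 2.48 FPKM in Th0. The folate carrier of acid pH, Slc46a1, met the level under WT TNF+TGF-β only and is described without a test, with 6.91, 9.86 and 7.09 FPKM, against 1.81, 1.39 and 1.25 FPKM in Th0.

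Inorganic ion carriers had the highest count, with 12 of 18 higher and none lower. Slc4a11, a member of the bicarbonate carrier family, had 33.5, 18.2 and 36.6 FPKM under WT TNF+TGF-β, against 3.74, 3.3 and 5.22 FPKM in WT Th0 (log2 difference 2.54 ± 0.34, limma adjusted p = 0.000163). The sodium-phosphate carrier Slc34a3, known from the kidney, had 4.45, 3.77 and 3.01 FPKM and was listed at 0 in all Th0 libraries, so no fold is given. Slc20a1, which imports phosphate with sodium, had 50.9, 63.3 and 39.2 FPKM, against 14.5, 23.9 and 12.9 FPKM in Th0. Slc9a7, a sodium/proton exchanger of the Golgi, had 14.8, 15.7 and 12 FPKM, against 6.51, 4.79 and 5.14 FPKM in Th0. Every one of these 4 separated the groups without overlap.

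Organic ion carriers rose in 4 of 6 cases and fell in 1. Slco3a1, an organic anion carrier, had 33.2, 29.9 and 37.9 FPKM under WT TNF+TGF-β, against 7.52, 7 and 6.8 FPKM in WT Th0 (log2 difference 2.09 ± 0.30, limma adjusted p = 0.000286). Slc17a5, which exports sialic acid from lysosomes, had 8.11, 5.29 and 8.19 FPKM, against 2.84, 2.13 and 2.11 FPKM in Th0. Slco4a1, another organic anion carrier, fell to 8.74, 8.86 and 7.52 FPKM, against 17.3, 20.6 and 14.6 FPKM in Th0. Of the metal and heme carriers 4 of 20 rose and none fell. The zinc importer Slc39a4 had 24.8, 24.9 and 21.7 FPKM, against 8.49, 7.09 and 7.85 FPKM in Th0, and Slc39a14, an importer of zinc, iron and manganese, had 11, 7.4 and 9.74 FPKM, against 3.44, 5.51 and 2.99 FPKM in Th0.

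Carriers of several substrates were among the 8 that fell under TNF+TGF-β. The urea channel Slc14a1 fell to 1.43, 1.63 and 1.05 FPKM, against 5.54, 4.22 and 4.37 FPKM in WT Th0 (log2 difference -1.27 ± 0.22, limma adjusted p = 0.00121). Slc25a33, which carries pyrimidine nucleotides into mitochondria, fell to 4.91, 5.38 and 5.22 FPKM, against 14.1, 13.4 and 13.3 FPKM in Th0. The lysosomal Slc46a3 fell to 2.35, 3.1 and 2.03 FPKM, against 7.18, 4.93 and 6.44 FPKM in Th0. Slc25a17, a carrier of peroxisomes, fell by 0.61 on the log2 scale. Slc29a1, the main equilibrative nucleoside carrier, had 281, 204 and 275 FPKM, against 534, 499 and 660 FPKM in Th0 (log2 difference -1.16 ± 0.34, limma adjusted p = 0.0211). The groups did not overlap, but its adjusted p ran from 0.0354 to 0.086 when 1 library was left out, and its call was lost without replicate 2 of TNF+TGF-β or without replicate 1 or 3 of Th0. Of the 30 carriers of the mitochondrial family, 4 rose and 2 fell.

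**Figure D3:**
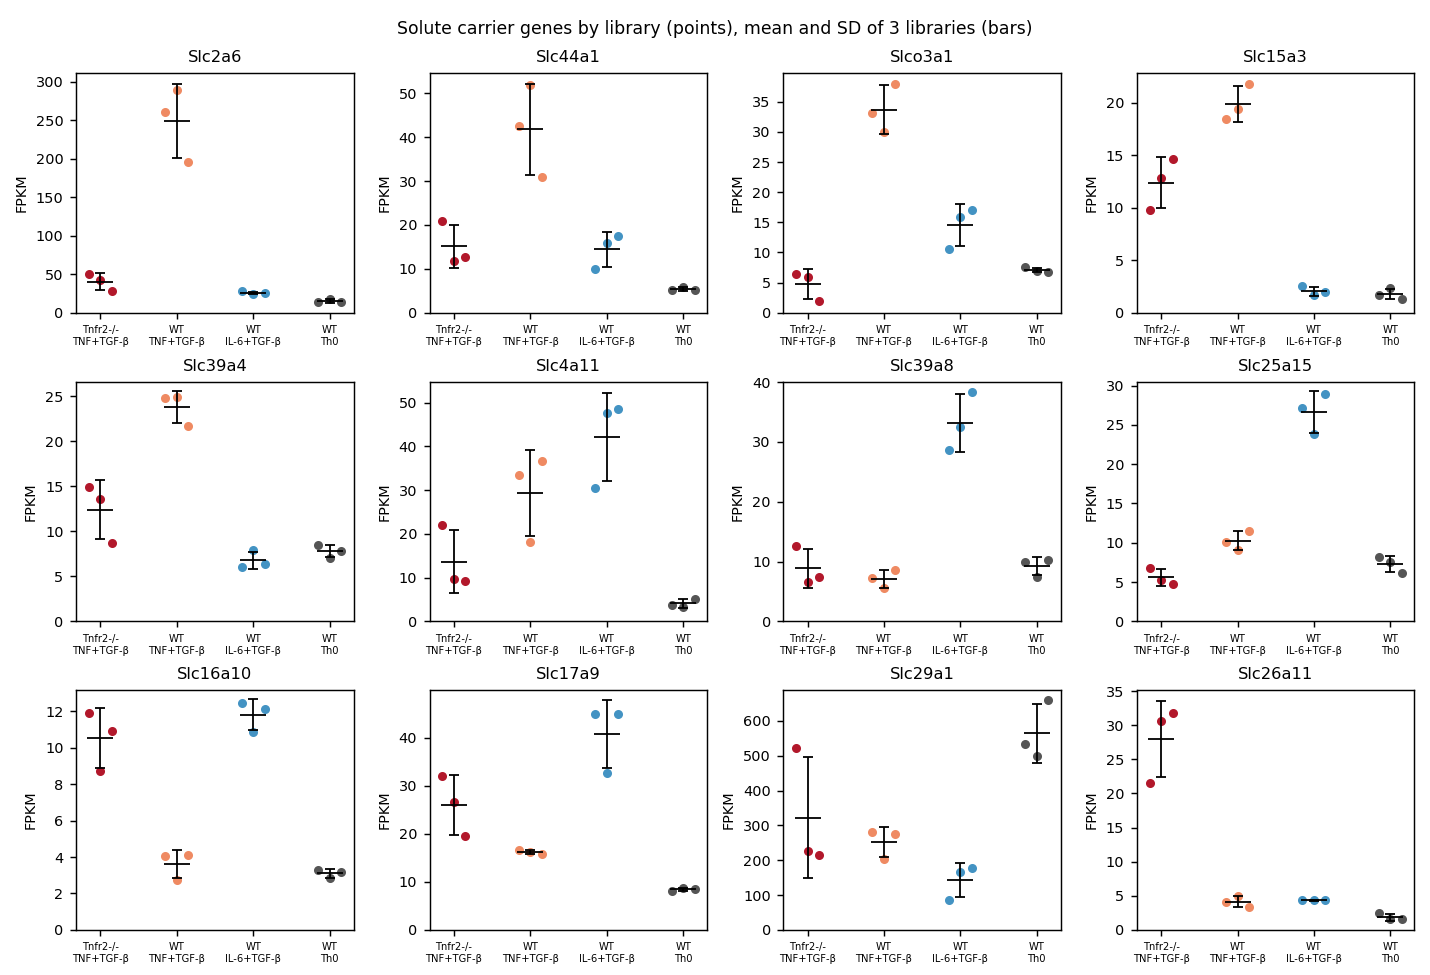
FPKM of 12 carrier genes in each library (points), with the mean and SD of 3 libraries (bars), with Tnfr2-/- cells first and WT Th0 last. Slc2a6 reaches 196 to 290 FPKM under WT TNF+TGF-β, Slc39a8 reaches 28.6 to 38.4 FPKM under WT IL-6+TGF-β, and Slc26a11 reaches 21.6 to 31.7 FPKM in Tnfr2-/- libraries.

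With IL-6+TGF-β more carriers were again called above Th0 than below it. Of 135 testable genes 40 rose and 5 fell, next to 14.1% and 9.15% of all tested genes. The share called either way was 33.3%, against 23.2% of all tested genes, and the median difference was 0.27, against 0.04. With no overlap between libraries, 54 carriers lay above Th0 and 11 below, next to 22.4% and 16.8% of all tested genes. Among the 82 genes that met the level in all 4 groups, 19 rose and 3 fell, or 26.8% called. Outside these 82 the level rule favours rises over Th0 here too. The count of rises was 24 without replicate 3 of IL-6+TGF-β and 25 without replicate 3 of Th0. This comparison and the one above share the Th0 libraries. Called lower were 2 of 8 B cell, 3 of 11 myeloid, 3 of 8 T cell and 1 of 3 dendritic cell markers, and 2 of 4 tested CD8 and NK markers were called higher. Their part was not tested.

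Slc4a11 showed the largest rise here, with 30.6, 47.5 and 48.5 FPKM under WT IL-6+TGF-β, against 3.74, 3.3 and 5.22 FPKM in WT Th0 (log2 difference 3.08 ± 0.34, limma adjusted p = 3.85e-05). Slc34a3 had 4.45, 4.44 and 3.8 FPKM, against 0 in all Th0 libraries. Slc17a9, which loads nucleotides into secretory vesicles, had 44.9, 32.6 and 44.8 FPKM, against 8.16, 8.78 and 8.42 FPKM in Th0 (log2 difference 2.13 ± 0.18, limma adjusted p = 4.13e-06). The groups did not overlap for any of the 3. Slc27a1 had 10.8, 12.8 and 10.6 FPKM, against 1.92, 2.5 and 2.48 FPKM in Th0. Slc43a2 had 14.2, 27 and 27.1 FPKM, against 5.9, 5.45 and 5.9 FPKM in Th0, with replicate 1 of IL-6+TGF-β the lowest of its group.

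Carriers of metals and amino acids were also among the larger rises. Slc39a8, an importer of zinc, manganese and other divalent metals, had 28.6, 32.4 and 38.4 FPKM under WT IL-6+TGF-β, against 9.99, 7.49 and 10.2 FPKM in WT Th0 (log2 difference 1.74 ± 0.23, limma adjusted p = 0.000176). Slc25a15, which exchanges ornithine and citrulline across the inner mitochondrial membrane, had 27.2, 23.8 and 28.9 FPKM, against 8.18, 7.54 and 6.11 FPKM in Th0. Slc16a10, a carrier of aromatic amino acids, had 12.5, 10.9 and 12.1 FPKM, against 3.29, 2.83 and 3.18 FPKM in Th0 (log2 difference 1.65 ± 0.17, limma adjusted p = 2.4e-05). All 3 separated from Th0 without overlap. Slc39a14 had 7.87, 14.6 and 14.6 FPKM, against 3.44, 5.51 and 2.99 FPKM in Th0. Of the metal and heme carriers 6 of 21 rose, of the inorganic ion carriers 9 of 19, and of the mitochondrial family 6 of 30, with 1 of the 30 lower.

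The largest of the 5 falls was that of Slc29a1, which fell to 86.8, 167 and 177 FPKM under WT IL-6+TGF-β, against 534, 499 and 660 FPKM in WT Th0 (log2 difference -2.03 ± 0.34, limma adjusted p = 0.000885). Slco4a1 fell to 5.63, 8.2 and 8.36 FPKM, against 17.3, 20.6 and 14.6 FPKM in Th0, and Slc14a1 to 1.64, 1.77 and 2.27 FPKM, against 5.54, 4.22 and 4.37 FPKM. Slc25a33 had 10.3, 7.89 and 8.84 FPKM, against 14.1, 13.4 and 13.3 FPKM, with an adjusted p of 0.00431 to 0.0503 when 1 library was left out, the highest without replicate 2 of IL-6+TGF-β. Slc35c2, of a nucleotide sugar family, had 17.7, 27.5 and 28.1 FPKM, against 33.1, 43.4 and 33 FPKM in Th0; it was called at an adjusted p of 0.0382, which ran from 0.0364 to 0.137 over the same fits and was lost without replicate 1 of IL-6+TGF-β or any 1 of the Th0 libraries. Slc2a6 had 27.8, 24.8 and 25.4 FPKM, against 13.7, 18.2 and 13.6 FPKM in Th0 (log2 difference 0.75 ± 0.21, limma adjusted p = 0.021), a call lost without replicate 3 of IL-6+TGF-β or replicate 1 or 3 of Th0 (adjusted p 0.019 to 0.0808).

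The cytokine pairs were then compared directly in WT cells. Under TNF+TGF-β 11 of 126 testable carriers were higher and 9 lower than under IL-6+TGF-β, next to 7.31% and 5.5% of all tested genes. The share called was 15.9%, against 12.8% of all tested genes, and the median difference was 0.01, against 0.00. With no overlap between libraries, 25 carriers were higher and 20 lower, next to 16.9% and 15.1% of all tested genes. Among the 82 genes that met the level everywhere, 6 were higher and 6 lower, or 14.6% called. Outside these 82, the level rule favours a difference toward the cytokine pair under which alone a gene met the level. The count of higher genes was 6 without replicate 1 of TNF+TGF-β and 7 without replicate 1 of IL-6+TGF-β. With TNF+TGF-β, 5 of 8 B cell markers and 1 of 4 tested CD8 and NK markers were called lower, and 1 of 11 myeloid and 1 of 3 dendritic cell markers higher. Of 8 T cell markers 1 was higher and 1 lower. The part of these markers was not tested.

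The genes higher with TNF+TGF-β were led by Slc2a6, with 262, 290 and 196 FPKM, against 27.8, 24.8 and 25.4 FPKM under WT IL-6+TGF-β (log2 difference 3.19 ± 0.21, limma adjusted p = 1.16e-06). Slc15a3 had 18.4, 19.4 and 21.8 FPKM, against 2.51, 1.65 and 1.99 FPKM under IL-6+TGF-β (2.78 ± 0.19, limma adjusted p = 1.72e-06). Because Slc15a3 met the level only in the groups given TNF+TGF-β, the level rule favoured this direction. Slc39a4 had 24.8, 24.9 and 21.7 FPKM, against 6.02, 7.89 and 6.4 FPKM. Slc44a1 had 42.5, 51.8 and 30.9 FPKM, against 9.99, 15.8 and 17.5 FPKM. The lysosomal nucleoside carrier Slc29a3 had 15.8, 18.8 and 18.1 FPKM, against 7.13, 9.09 and 7.72 FPKM, and Slc9a7 had 14.8, 15.7 and 12 FPKM, against 5.73, 4.92 and 8.12 FPKM. None of these 6 overlapped between the groups. Slco3a1 (33.2, 29.9 and 37.9 FPKM, against 10.6, 16 and 17.1 FPKM) had an adjusted p of 0.0355 to 0.0859 when 1 library was left out and lost its call without replicate 1 or 3 of TNF+TGF-β or replicate 1 of IL-6+TGF-β. Slc27a1 (22.1, 27.7 and 15.7 FPKM, against 10.8, 12.8 and 10.6 FPKM) had 0.00677 to 0.0902 and lost it without replicate 1 or 2 of TNF+TGF-β or replicate 1 or 3 of IL-6+TGF-β.

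The genes lower with TNF+TGF-β included 5 of the 30 mitochondrial carriers, while none of that family was higher. Slc39a8 had 7.18, 5.52 and 8.5 FPKM under WT TNF+TGF-β, against 28.6, 32.4 and 38.4 FPKM under WT IL-6+TGF-β (log2 difference -2.09 ± 0.23, limma adjusted p = 7.4e-05). Slc16a10 had 4.04, 2.72 and 4.11 FPKM, against 12.5, 10.9 and 12.1 FPKM. Slc25a15 had 10.1, 9.09 and 11.5 FPKM, against 27.2, 23.8 and 28.9 FPKM, and Slc17a9 had 16.5, 16.2 and 15.8 FPKM, against 44.9, 32.6 and 44.8 FPKM. These 4 separated the groups, and every library under TNF+TGF-β was the lower. Slc35b1, which exchanges ADP and ATP across the membrane of the endoplasmic reticulum, had 50.8, 50.4 and 51.3 FPKM, against 116, 69.9 and 77 FPKM. The differences of Slc25a33 and Slc25a17 were -0.69 and -0.58 on the log2 scale. Within the zinc importer family Slc39, Slc39a4 was called higher and Slc39a8 lower among 11 tested.

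**Figure D4:**
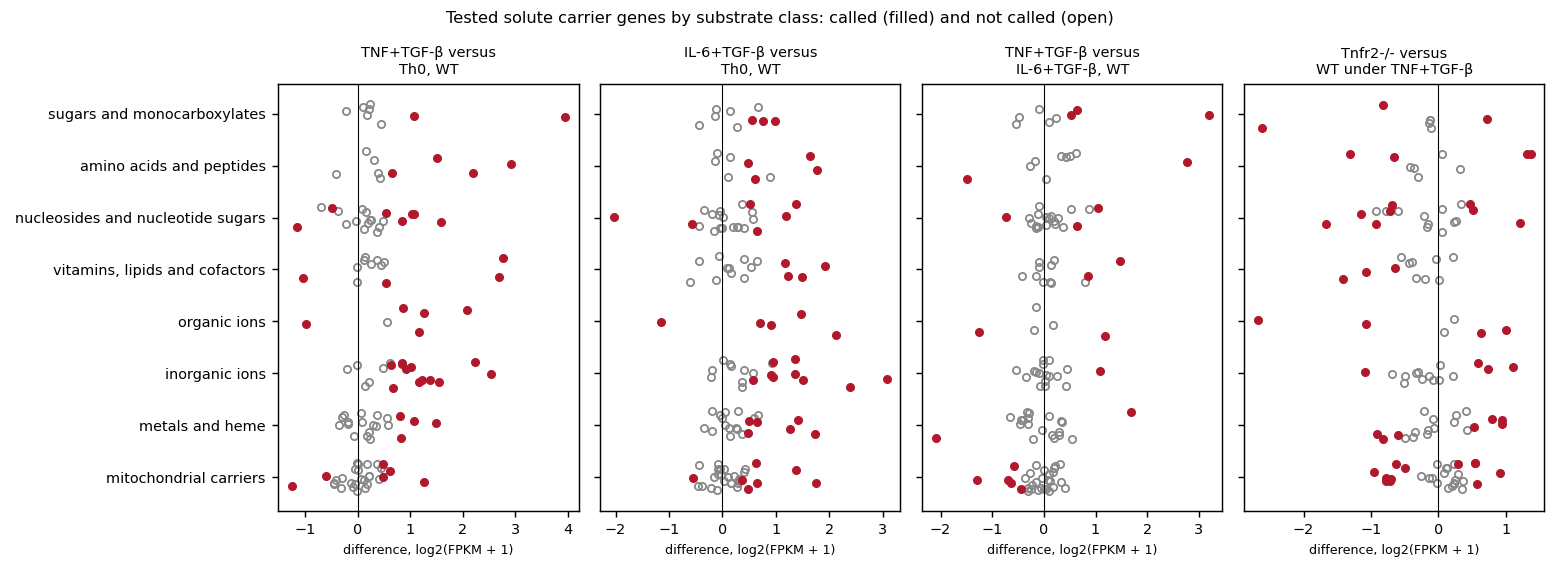
Log2(FPKM + 1) difference of each testable carrier gene (points) by substrate class in the 4 comparisons, filled where the limma adjusted p was under 0.05 and open where it was not. Inorganic ion carriers lie mostly to the right of 0 in both comparisons with Th0, where 12 of 18 and 9 of 19 were called higher; the Tnfr2-/- comparison holds called genes on both sides.

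The comparison of Tnfr2-/- with WT cells under TNF+TGF-β asks which of these levels differ without TNF receptor 2. Of 119 testable carriers, 21 were higher and 25 lower in Tnfr2-/- cells, next to 19.9% and 17.5% of all tested genes. The share called was 38.7%, near the 37.4% of all tested genes, and the median difference was -0.08, against 0.00. With no overlap between libraries, 28 carriers were higher and 32 lower, next to 26.8% and 24% of all tested genes. Among the 82 genes that met the level everywhere, 15 were higher and 15 lower, or 36.6% called. Outside these 82, a gene that met the level in only 1 of the groups compared was favoured to be higher there. After TPM rescaling, which moved the median of all genes to -0.11, 14 were higher and 28 lower. The count of lower genes was 16 without the Tnfr2-/- library numbered 4 and 15 without replicate 1 or replicate 3 of WT TNF+TGF-β, and that of higher genes was 12 without replicate 3 of WT TNF+TGF-β. Markers moved with this contrast: 8 of 8 B cell and 7 of 11 tested myeloid markers were called higher in Tnfr2-/- cells, with 1 myeloid marker and 4 of 4 tested CD8 and NK markers lower. Of the tested erythroid markers 3 of 4 were higher, and of 8 T cell markers 1 was higher and 3 lower. Of 3 tested dendritic cell markers 2 were lower. Their part in the carrier differences was not tested.

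Several carriers that were high in WT cells under TNF+TGF-β were lower without the receptor. Slc2a6 had 50.3, 42.4 and 28.4 FPKM in Tnfr2-/- libraries, against 262, 290 and 196 FPKM in WT libraries (log2 difference -2.61 ± 0.21, limma adjusted p = 6.34e-06). Slco3a1 had 6.51, 5.98 and 2 FPKM, against 33.2, 29.9 and 37.9 FPKM (-2.68 ± 0.30, limma adjusted p = 4.83e-05). Slc44a1 had 20.8, 11.8 and 12.8 FPKM, against 42.5, 51.8 and 30.9 FPKM (-1.42 ± 0.25, limma adjusted p = 0.00118). In all 3, every Tnfr2-/- library lay below every WT library. Slc6a6 had 40.9, 25.4 and 25.2 FPKM, against 82.5, 83.8 and 62.3 FPKM, and Slc39a4 had 15, 13.6 and 8.69 FPKM, against 24.8, 24.9 and 21.7 FPKM. The nucleobase carrier Slc43a3 had 55.1, 34.5 and 29 FPKM, against 89.9, 79.4 and 88.3 FPKM. Slc22a15, a member of the organic cation carrier family, had 2.33, 1.84 and 1.75 FPKM, against 5.57, 4.82 and 5.31 FPKM. All 7 were also called higher over Th0 in WT cells given TNF+TGF-β, a comparison that uses the same 3 WT TNF+TGF-β libraries, so the calls are not independent.

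Other genes lower in Tnfr2-/- cells had not been called in that WT comparison. The SLC35 family member Slc35g1 had 9.67, 4.44 and 2.55 FPKM in Tnfr2-/- libraries, against 21.1, 14.5 and 18.4 FPKM in WT libraries (log2 difference -1.67 ± 0.31, limma adjusted p = 0.00148). The thiamine carrier Slc19a2 had 8.61, 4.2 and 3.44 FPKM, against 12, 10.7 and 12.7 FPKM. Slc25a15 had 6.79, 5.29 and 4.73 FPKM, against 10.1, 9.09 and 11.5 FPKM. In these 3 genes the library numbered 4 had the lowest value of the Tnfr2-/- group. All 3 met the level in the WT groups but not in Tnfr2-/- cells, so the level rule favoured this direction.

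Some calls were lost when 1 library was left out. Slc4a11 had 22, 9.73 and 9.31 FPKM in Tnfr2-/- libraries, against 33.5, 18.2 and 36.6 FPKM in WT libraries, with replicate 1 of Tnfr2-/- above replicate 2 of WT. Its adjusted p was 0.0243 with all libraries and 0.00289 to 0.0951 when 1 was left out, and the call was lost without Tnfr2-/- replicate 2 or the library numbered 4, and without WT replicate 1 or 3. Slc15a3 had 9.74, 12.8 and 14.6 FPKM, against 18.4, 19.4 and 21.8 FPKM (adjusted p 0.0198, and 0.017 to 0.0738), with its call lost without Tnfr2-/- replicate 1 or WT replicate 3. Slc25a5, the most abundant carrier, had 659, 629 and 425 FPKM, against 941, 698 and 990 FPKM (0.0174, and 0.00819 to 0.0724), with its call lost without the library numbered 4 or WT replicate 1 or 3. In all, 26 of the 46 called carriers kept their call in every fit without 1 library of these groups.

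**Figure D5:**
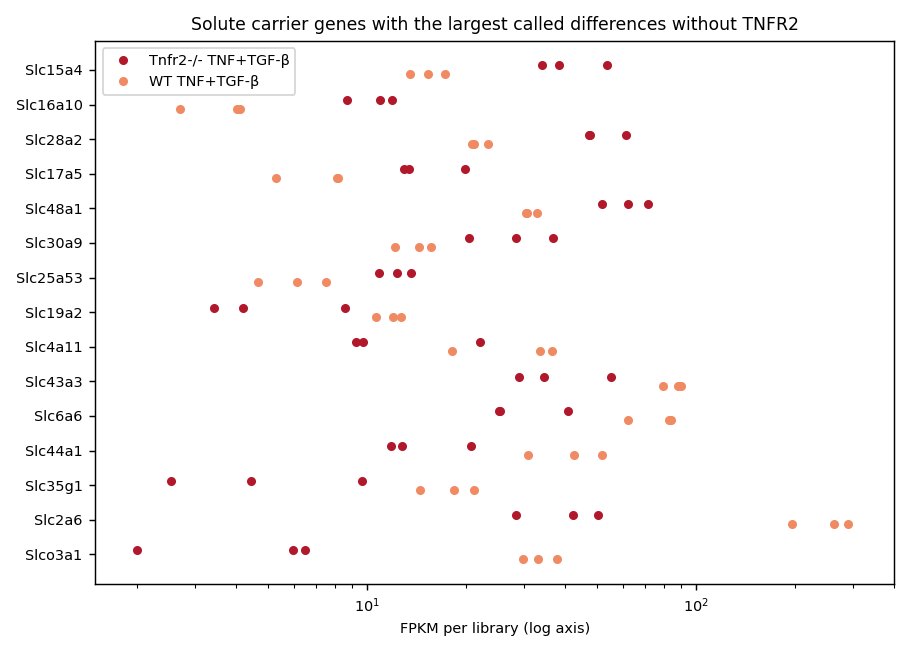
FPKM per library (log axis) of 7 carriers with large called rises and the 8 with the largest called falls, for Tnfr2-/- (upper point row of each gene) and WT (lower point row) under TNF+TGF-β. Slc15a4 at the top is higher in every Tnfr2-/- library (34.1 to 53.6 FPKM, against 13.6 to 17.3 FPKM in WT), and Slco3a1 at the bottom is lower in every one (2 to 6.51 FPKM, against 29.9 to 37.9 FPKM in WT).

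The genes higher in Tnfr2-/- cells included carriers of different substrates. Slc15a4, a histidine and peptide carrier of lysosomes best known from B cells and dendritic cells, had 38.5, 34.1 and 53.6 FPKM in Tnfr2-/- libraries, against 17.3, 13.6 and 15.3 FPKM in WT libraries (log2 difference 1.37 ± 0.23, limma adjusted p = 0.000654). Slc28a2, which concentrates purine nucleosides, had 47.7, 47.2 and 61.4 FPKM, against 23.4, 21.1 and 20.8 FPKM (1.21 ± 0.16, limma adjusted p = 0.000154). Slc17a5 had 19.9, 13 and 13.4 FPKM, against 8.11, 5.29 and 8.19 FPKM. The groups did not overlap for these 3, and for Slc15a4 and Slc28a2 the library numbered 4 was the highest. Slc48a1, which moves heme out of endolysosomes, had 71.5, 62.1 and 51.9 FPKM, against 30.4, 32.8 and 30.6 FPKM. Its exons overlap those of Hdac7 on the opposite strand, and reads of the 2 cannot be told apart because the library kit does not mark the strand. The same holds for Slc25a11, which overlaps Rnf167, and Slc5a6, which overlaps Atraid; in all, 11 of the 137 genes share exon sequence with a gene averaging at least 5 FPKM.

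Slc16a10, which in WT cells was lower with TNF than with IL-6, was higher in Tnfr2-/- than in WT cells. It had 11.9, 8.73 and 10.9 FPKM in Tnfr2-/- libraries, against 4.04, 2.72 and 4.11 FPKM in WT TNF+TGF-β libraries (log2 difference 1.32 ± 0.17, limma adjusted p = 0.000119). Both comparisons use the same WT TNF+TGF-β libraries, so they are not independent. Slc16a10 met the level only in Tnfr2-/- and WT IL-6+TGF-β libraries, so the level rule favoured both directions. Among zinc carriers, 2 of 4 tested genes of the exporter family Slc30 were called higher in Tnfr2-/- cells, and 3 of 11 of the importer family Slc39 were called lower. The others were not called, and the difference between the families was not tested. Slc30a9 had 20.5, 28.4 and 36.8 FPKM, against 12.2, 14.4 and 15.6 FPKM. Slc25a53 had 12.3, 10.9 and 13.6 FPKM, against 7.51, 6.14 and 4.67 FPKM. Like Slc16a10, it met the level in Tnfr2-/- but not in WT TNF+TGF-β libraries. In the mitochondrial family as a whole 5 of 29 were higher and 7 lower.

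The 9 genes that met the level through Tnfr2-/- libraries alone are given without a test; 2 of them, Slc41a3 and Slc25a37, are among the genes just inside the threshold. The sulfate carrier Slc26a11 had 21.6, 30.6 and 31.7 FPKM in Tnfr2-/- libraries, against 4.14, 4.92 and 3.4 FPKM in WT libraries under TNF+TGF-β. Slc46a3 had 9.87, 16 and 12.1 FPKM, against 2.35, 3.1 and 2.03 FPKM, and Slc37a2, of the sugar-phosphate exchanger family, had 14.5, 12 and 8.98 FPKM, against 5.56, 2.61 and 4.32 FPKM. Slc14a1 had 5.34, 7.76 and 10.8 FPKM, against 1.43, 1.63 and 1.05 FPKM. Slc34a3 had 8.19, 6.03 and 7.01 FPKM, against 4.45, 3.77 and 3.01 FPKM. The mitochondrial iron carrier Slc25a37 had 5.31, 9.33 and 8.62 FPKM, against 4.2, 2.94 and 4.82 FPKM. For Slc35a5 the values were 6.7, 10.9 and 11.1 FPKM, against 5.53, 4.6 and 3.55 FPKM, and for Slc12a9 6.71, 7.65 and 7.51 FPKM, against 4.97, 5.29 and 3.15 FPKM.

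Another 9 genes met the level through WT TNF+TGF-β alone. Slc27a6, a second fatty acid transport protein, had 14, 11.4 and 10.6 FPKM there, against 1.51, 1.93 and 2.68 FPKM under WT IL-6+TGF-β and 0.43, 0.39 and 0.19 FPKM in WT Th0; Tnfr2-/- libraries under TNF+TGF-β had 7.92, 4.5 and 3.14 FPKM. The sulfate carrier Slc26a2 had 7.22, 4.09 and 9.61 FPKM in Tnfr2-/- libraries, 12.9, 17.6 and 12.4 FPKM under WT TNF+TGF-β, 3.95, 7.94 and 6.62 FPKM under WT IL-6+TGF-β and 3.19, 5.41 and 4.76 FPKM in WT Th0. Slc46a1 in Tnfr2-/- libraries had 9.69, 8.4 and 1.3 FPKM, the lowest being the library numbered 4. The sodium-potassium-chloride carrier Slc12a2 had 4.53, 1.6 and 2.21 FPKM in Tnfr2-/- libraries, against 8.26, 8.21 and 6.58 FPKM in WT TNF+TGF-β libraries. Slc4a8, a sodium-driven bicarbonate exchanger, was 1 of the 2 that met the level through IL-6+TGF-β alone, with 9.26, 18.4 and 14.5 FPKM, against 2.72, 1.41 and 2.35 FPKM in WT Th0.

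Other transport genes were counted in the same fit. Of 38 tested ATP-driven pumps and ABC transporters, TNF+TGF-β gave 17 higher and 4 lower than Th0, and IL-6+TGF-β gave 8 higher and 5 lower. Set against IL-6+TGF-β, TNF+TGF-β gave 9 higher and 3 lower. In Tnfr2-/- cells 2 were higher and 13 lower than in WT cells. Over all tested genes the shares called higher and lower were 18.7% and 13% for TNF+TGF-β over Th0, 14.1% and 9.15% for IL-6+TGF-β over Th0, 7.31% and 5.5% for TNF over IL-6, and 19.9% and 17.5% for Tnfr2-/- over WT. Atp1b1, a subunit of the sodium pump, averaged 65.9 ± 9.6 FPKM under WT TNF+TGF-β and 3.46 ± 0.35 FPKM in WT Th0 (SD over 3 libraries, limma adjusted p = 1.82e-07). Atp2a2, the calcium pump of the endoplasmic reticulum, averaged 24.4 ± 11.4 FPKM in Tnfr2-/- cells and 73.4 ± 4.2 FPKM in WT cells under TNF+TGF-β, and the exporter Abcg2 averaged 5.69 ± 2.91 and 19.8 ± 3.3 FPKM in those groups (SD over 3 libraries). Of 39 tested carriers of the superfamily that go by other symbols, the calls over Th0 were 8 higher and 3 lower for TNF+TGF-β, then 6 higher and 2 lower for IL-6+TGF-β. Set against IL-6+TGF-β, TNF+TGF-β had 3 higher and 5 lower. Against WT, Tnfr2-/- cells had 7 higher and 5 lower. Unc93b1, which escorts nucleic-acid-sensing Toll-like receptors, averaged 265 ± 68 FPKM in Tnfr2-/- cells and 42.5 ± 12.5 FPKM in WT cells under TNF+TGF-β. Of the 14 carriers left out by name 12 were tested, with 2 higher and 3 lower for TNF+TGF-β over Th0 and 2 higher for IL-6+TGF-β over Th0. In Tnfr2-/- cells 1 was higher and 4 were lower, among them the large neutral amino acid carrier Slc7a5, at 13.8 ± 8.9 FPKM, against 58.5 ± 6.3 FPKM in WT cells.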

How the data were processed

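Per the labels' protocols, the kits were SMARTer Ultra Low Input for cDNA and Nextera XT for sequencing libraries, which do not mark the strand. Per the submitters' processing notes, Trimmomatic, STAR 2.5.4 and RSEM 1.3.1 were used on mm10. The deposited values were read as FPKM made by the authors, since their sums per library differ; the annotation is not given in the sources used here. The 13082 genes reaching 1 FPKM in 3 libraries or more were fitted with limma 3.58.1 in R 4.3.3 on log2(FPKM + 1), a scale that understates the change of low genes, with 1 mean per group over 12 libraries and Benjamini-Hochberg adjustment over all of them. The fit was tested on simulated data. It recovered 65% to 73% of added log2 differences of 1 and 96% to 98% of those of 2. Of the genes called there, 2.98% to 5.52% were false, the most for Tnfr2-/- against WT. The simulation gave each gene the same spread in every group, although the Tnfr2-/- libraries varied more. Called means an adjusted p under 0.05.

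The members and lists were chosen with earlier results of these data known. Named members are the 8 largest called rises and falls per comparison, the 10 highest levels, 3 called per substrate class, 8 per group of those that met the level through that group, 3 on each side of the threshold and 3 called per transport list; others are said to be chosen after their values were seen. Some that met the rule are given as counts, and some are not reported here by name.

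The Tnfr2-/- column numbered 4 matched no label number, so it was used as a member of its group. The files give no depth. It was estimated over 8697 genes that have only 1 transcript, 800 to 3000 bases long, and 77.7% to 87.9% of low values lay within 0.2 of a whole step. At that depth 3 fragments on 1 kilobase are 0.125 to 0.179 FPKM, counting error only. Coordinates are from GENCODE M21 (GRCm38), which held 99.1% of the identifiers. The alternatives were pseudocounts of 0.1 and 5, no filter, TPM, median-ratio scaling, only the 2 groups compared, a replicate block, leaving out each library, and, added after seeing the data, only the 82 members that met the level in all 4 groups.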

Additional observations from a re-analysis of the deposited data

How the results depend on the processing

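Across 3380 values of 260 named gene results under the alternatives, none that was called in the main fit or the alternative changed direction. On the same side of the threshold stayed 3172 values, which include members called in neither fit, whose direction was not checked. A further 187 lost the call and 21 gained it. Among the 82 members that met the level in all 4 groups (chosen after seeing the data), the higher and lower counts were 19 and 5 for TNF+TGF-β over Th0, 19 and 3 for IL-6+TGF-β over Th0, 6 and 6 for TNF over IL-6, and 15 and 15 for Tnfr2-/- over WT cells; fewer genes were counted there. With only the 2 groups compared, TNF+TGF-β had 14 members below Th0, and the cause was not tested. When 1 library was left out, the members higher and lower ran from 30 to 36 and 6 to 8 (TNF+TGF-β against Th0), 24 to 46 and 4 to 5 (IL-6+TGF-β against Th0), 6 to 10 and 8 to 9 (TNF over IL-6), and 12 to 18 and 15 to 34 (Tnfr2-/- against WT). With the replicate block, which leaves out the library numbered 4, 13 members were higher and 16 lower in Tnfr2-/- than in WT cells. Correlations of deviations from the group means ran from -0.284 to 0.344 between same-numbered libraries of different groups. Between libraries of different number they ran from -0.34 to 0.292. Such overlapping ranges cannot tell whether a number marks a shared culture or batch, and the labels do not say. Under the block TNF+TGF-β had 39 members above and 10 below Th0. Depth limits values near 0.179 FPKM.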
